A study of Mus musculus with 8 samples.

Results

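Transcripts of the gp130 cytokine pathway were examined in primary mouse oligodendrocyte lineage cells in which the transcriptional activator Klf6 had been silenced. The 5 genes described were Il6st, which encodes the shared receptor subunit gp130, Jak1, a kinase bound to it, Stat3, the transcription factor that it activates, and the feedback inhibitors Socs2 and Socs3. They were taken by gene name from the pathway that induces Klf6, with earlier results of these data known. The study had already reported all 5 as regulated by Klf6 from these cultures. They were 5 of the 350 gene names that occurred in either table. The cells were oligodendrocyte progenitors (OLP), isolated from the cerebral cortex of early postnatal C57BL/6 mice by panning on antibody to Pdgfrα after depletion of microglia and kept in PDGF-AA and bFGF, and immature oligodendrocytes (iOL), which were OLP given 40 ng/ml of the thyroid hormone T3 over 18 h. At both stages, cells had received, by nucleofection, either an siRNA to Klf6 (siKlf6) or a control siRNA without a target (NT), so the controls carried an siRNA and the electroporation too. There were 2 cultures in each of the 4 groups and 8 in all. An siRNA acts for a limited time and need not remove its target. Apart from checks of specificity, the study relied on a single primary siRNA to Klf6, which the labels of these cultures do not name.

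Cytokines of the gp130 family, such as Cntf, Lif and interleukin-6, bind receptor complexes that contain gp130. Jak kinases on these complexes then phosphorylate Stat3, which enters the nucleus and activates genes, among them Socs3. Socs proteins in turn bind the receptor or the kinase and dampen the signal. In the oligodendrocyte lineage, this pathway is known for promoting differentiation and survival, and in astrocytes for driving Gfap.

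Each stage was deposited as a table of the transcripts that the authors' CuffDiff comparison had marked as significant after false discovery rate correction at 0.05. All 275 rows of the OLP table and all 112 rows of the iOL table bore that mark. Each row gave a single FPKM (fragments per kilobase of transcript, scaled to the mapped fragments of a library) for each condition, pooled over the cultures. Values of single cultures, the spread between them and the depth of the libraries are therefore unknown, and no test was run on any value below. A gene with a row is called listed, and for such a gene "fell" and "rose" rest on the mark of the authors. A gene that is not listed may have been unchanged, weakly expressed or variable. In whole cultures, fewer cells of a type and less RNA per cell cannot be told apart.

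The annotated promoters are shown first, since Klf/Sp factors such as Klf6 bind GC-rich motifs. Whether such motifs had a part in the falls of the 5 genes was not tested. RefSeq windows from 250 bases before to 50 bases after the start site (GRCm38.p6) were found for 4 of the 5 genes. They lay at chr13:112463820-112464119 (plus strand) for Il6st, chr11:100939491-100939790 (minus strand) for Stat3, chr11:117969317-117969616 (minus strand) for Socs3 and chr4:101265174-101265473 (minus strand) for Jak1. They are written 5′ to 3′ on the strand of the gene. Capitals mark matches on either strand to the GC box (GGGCGG), to the Krüppel-type box (CACCC) or to the Stat site (TTCNNNGAA, where N is any base). Positions are counted from 0 at the start site.

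Il6st: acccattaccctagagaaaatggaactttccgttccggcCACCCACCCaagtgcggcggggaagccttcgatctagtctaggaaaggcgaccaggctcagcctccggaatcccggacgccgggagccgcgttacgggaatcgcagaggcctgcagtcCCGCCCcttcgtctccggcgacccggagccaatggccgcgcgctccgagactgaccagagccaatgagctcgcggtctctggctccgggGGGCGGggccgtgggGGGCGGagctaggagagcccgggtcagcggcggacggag
Stat3: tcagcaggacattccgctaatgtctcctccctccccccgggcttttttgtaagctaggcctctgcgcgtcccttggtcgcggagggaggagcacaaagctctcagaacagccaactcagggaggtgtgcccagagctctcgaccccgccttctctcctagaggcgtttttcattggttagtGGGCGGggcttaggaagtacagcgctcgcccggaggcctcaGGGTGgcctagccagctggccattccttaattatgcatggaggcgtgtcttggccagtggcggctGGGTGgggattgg
Socs3: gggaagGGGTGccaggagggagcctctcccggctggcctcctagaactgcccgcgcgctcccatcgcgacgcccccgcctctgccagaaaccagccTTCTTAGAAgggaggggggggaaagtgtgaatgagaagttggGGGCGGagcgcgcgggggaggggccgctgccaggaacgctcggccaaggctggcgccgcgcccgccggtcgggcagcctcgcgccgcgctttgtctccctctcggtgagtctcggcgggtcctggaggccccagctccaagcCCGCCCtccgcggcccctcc
Jak1: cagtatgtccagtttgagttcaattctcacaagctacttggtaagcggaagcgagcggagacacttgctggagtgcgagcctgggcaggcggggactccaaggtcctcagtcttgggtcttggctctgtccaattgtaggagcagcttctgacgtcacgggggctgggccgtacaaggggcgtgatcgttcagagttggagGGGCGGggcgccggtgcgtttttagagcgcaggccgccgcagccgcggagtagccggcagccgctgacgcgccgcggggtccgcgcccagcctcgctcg

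A GC box was present in all 4 windows, with 3 in Il6st, 2 in Socs3 and 1 each in Stat3 and Jak1. The same letters occurred in 47.9% of the 18191 windows of protein-coding genes and in 69.9% of the 193 windows of genes listed as lower in OLP, so its presence was common. At least 3 matches, as in Il6st, were found in 15.5% of the windows of protein-coding genes. In Il6st, 1 of these matches spanned the start site, from position -4 to 1, and another lay at positions 11 to 16. The Krüppel-type box was found in 3 of the 4 windows, against 60.1% of the windows of protein-coding genes and 69.9% of those of genes listed as lower in OLP. The 2 copies in Il6st overlapped by 1 base, and there was none in Jak1. Only the Socs3 window of these 4 held a Stat site, at positions -154 to -146, against 7.77% of the windows of protein-coding genes and 11.4% of those of genes listed as lower in OLP. The 4 windows contained between 60.7% and 73.3% G and C, against a median of 57.0%, and GC-rich letters are more frequent in such windows. A match describes letters and is not a measured site of binding. By ChIP-seq in primary OLP and iOL, the study reported binding of Klf6 at the promoter of the gp130 gene (Il6st). Those data were not used here, and whether that binding lies at these matches was not tested.

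**Figure D1:**
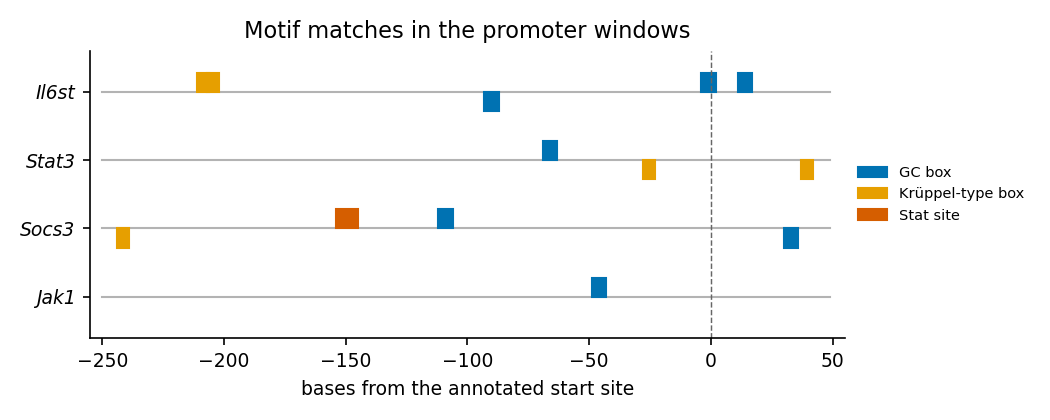
Positions of motif matches in the promoter windows of Il6st, Stat3, Socs3 and Jak1, in bases from the annotated start site (dashed line at 0), drawn above the line for the strand of the gene and below it for the opposite strand. Blue marks the GC box, present in all 4 windows, orange the Krüppel-type box and red the Stat site, which is seen in Socs3 alone.

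All 5 pathway genes were listed in OLP, and all 5 were lower in siKlf6. For comparison, 0.953% of the 22238 annotated protein-coding genes were listed as lower in OLP, a share that counts genes these cells may not express. Of the 275 listed rows, 78.5% were lower, so the direction of a listed gene carries little by itself. The study picked these genes from these cultures, and the count is not independent evidence. Separately, the study reported lower Stat3 and gp130 transcripts by qPCR after Klf6 silencing. It also reported less Stat3 protein in oligodendrocyte lineage cells of mice with Klf6 inactivated in that lineage. The 5 genes had a median log2 ratio (siKlf6 over NT) of -1.53, against a median of -1.16 among the 216 lower rows. Their values ran from -4.11 to -0.68. Klf6 itself was at 38.6 FPKM in NT and 20.0 FPKM in siKlf6, which is 48.2% lower (log2 ratio -0.95).

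The receptor subunit was considered first. Il6st occupies bases 113265216 to 113297068 of chromosome 13, plus strand, in NCBIM37 (mm9, the build of the authors), with up to 15 annotated exons. It was at 25.0 FPKM in NT and at 8.63 FPKM in siKlf6, a fall of 65.5% (log2 ratio -1.53). This was the fall of rank 67 among the 216 lower rows, and of rank 32 once 1 FPKM had been added to both values. No other annotated gene overlapped Il6st.

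The kinase and the transcription factor fell by smaller and nearly equal factors. Jak1 was at 26.3 FPKM in NT and 16.5 FPKM in siKlf6, a fall of 37.4% (log2 ratio -0.68). Stat3 was at 91.0 FPKM in NT and 56.8 FPKM in siKlf6, a fall of 37.6% (log2 ratio -0.68). These falls held ranks 205 and 204 of 216, and the smallest fall listed in OLP had a log2 ratio of -0.58, so both genes were among the smallest changes that the table holds. Stat3 was nonetheless one of its most abundant transcripts, with the level of rank 12 in NT, and in FPKM it lost 34.2 units where Il6st lost 16.4. Jak1 lies on chromosome 4 at 100824972 to 100937887 and Stat3 on chromosome 11 at 100746412 to 100800854, both on the minus strand (NCBIM37). The end of Stat3 overlaps Stat5a on the opposite strand by 72 bp, and Jak1 overlaps Raver2 by 4 bp and contains a small nuclear RNA gene and a pseudogene. Whether reads were assigned by strand is not given in the sources used here, so reads from these overlaps may count toward either gene.

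The inhibitors fell most. Socs3, which blocks gp130-Jak signaling, was at 46.6 FPKM in NT and 7.02 FPKM in siKlf6, a fall of 84.9% (log2 ratio -2.73, rank 26 of 216). In FPKM this was the largest loss of the 5 genes, at 39.6 units. Socs2, an inhibitor best known for restraining growth hormone signaling, was at 4.06 FPKM in NT and 0.236 FPKM in siKlf6, a fall of 94.2% (log2 ratio -4.11, rank 6 of 216). The order of the 2 inhibitors depended on this low silenced value. With 1 FPKM added to both values, Socs2 was at -2.03 and Socs3 at -2.57, and Socs3 then held rank 5 of all rows and Socs2 rank 17. Socs3 lies on chromosome 11 at 117827393 to 117831361 and Socs2 on chromosome 10 at 94847996 to 94879814, both on the minus strand (NCBIM37), and no other annotated gene overlapped either of them.

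**Figure D2:**
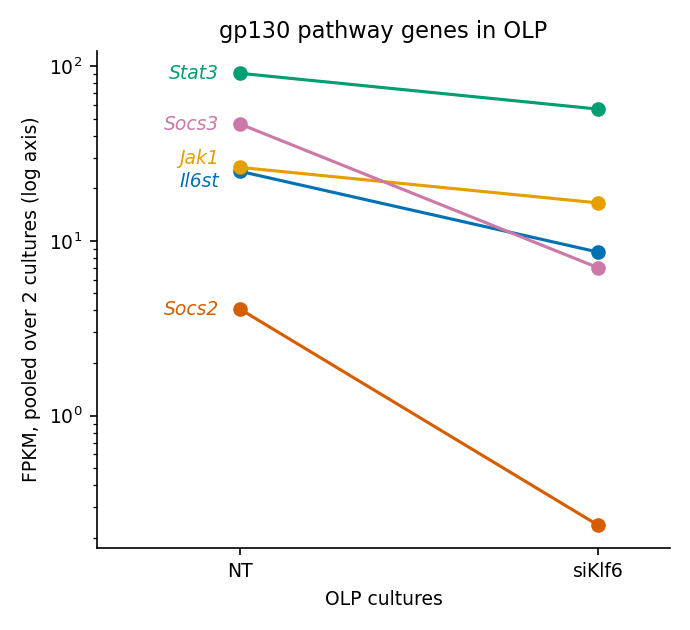
FPKM of the 5 pathway genes in OLP, pooled over 2 cultures per condition (log axis), with a line from NT to siKlf6 for each gene. Stat3 (91.0 to 56.8) and Jak1 (26.3 to 16.5) run nearly parallel, whereas Il6st, Socs3 and Socs2 drop more steeply and Socs3 crosses below Jak1 and Il6st.

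In all, 3 of the 5 genes were lower by at least 2-fold, against 47.6% of all listed OLP rows, which include the higher rows. Of the 216 lower rows alone, 131 were lower by at least 2-fold, a share close to that of the 5 genes. The proportions among the 5 transcripts differed between the conditions. Stat3 was 3.46 times the level of Jak1 in NT and 3.44 times in siKlf6, per length, so this pair kept its ratio. Jak1 was 1.05 times the level of Il6st in NT and 1.91 times in siKlf6. Stat3 was 1.95 times the level of Socs3 in NT and 8.09 times in siKlf6, and Socs3 went from 1.86 times to 0.814 times the level of Il6st. In NT the order of the levels was Stat3, Socs3, Jak1, Il6st and Socs2, with Jak1 and Il6st close to each other. In siKlf6 it was Stat3, Jak1, Il6st, Socs3 and Socs2. Whether neighbors in these orders differ beyond the spread between cultures is unknown.

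The remaining genes of the pathway were then counted, from a list of 49 genes that includes the 5 above. In OLP, 8 of the 49 were listed, all lower, and 6 of them by at least 2-fold. Among the 44 genes other than the 5, 3 were listed as lower (6.82%, against 0.953% of annotated protein-coding genes) and none as higher. These 3 were Osmr, Cish and the row of Insl3 and Jak3. Osmr, the receptor subunit that pairs with gp130 to bind oncostatin M, was at 1.49 FPKM in NT and 0.0313 FPKM in siKlf6 (log2 ratio -5.57, or -1.27 with 1 FPKM added). Cish, a Socs family inhibitor induced by Stat5, was at 8.29 FPKM in NT and 1.19 FPKM in siKlf6 (log2 ratio -2.80). Jak3, a kinase of cytokine receptors on blood cells, shared its row with the hormone gene Insl3, so it cannot be told which of the 2 fell. The row was at 1.63 FPKM in NT and 0.326 FPKM in siKlf6.

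By role, the receptors had 2 of 7 genes listed (Il6st and Osmr). The Jak kinases had 2 of 4, Jak1 and the shared row of Insl3 and Jak3, which may not reflect Jak3. The Stat factors had 1 of 6 (Stat3) and the Socs family 3 of 8 (Socs2, Socs3 and Cish). All were lower, against 0.953% of annotated protein-coding genes listed as lower in OLP. These counts include Il6st, Jak1, Stat3, Socs2 and Socs3, which were chosen with earlier results known, so they are not independent evidence. None of the 11 ligands was listed, nor were Lifr, Cntfr and Il6ra, the receptor subunits for Lif, Cntf and interleukin-6. None of the 7 other inhibitors of the pathway and none of the 6 adaptors that couple the receptor to Ras and Erk was listed. The listed genes of the pathway were thus receptor subunits, Jak1, a Stat factor and Socs family inhibitors, beside the row of Insl3 and Jak3. The levels of the others in these cultures are unknown.

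**Figure D3:**
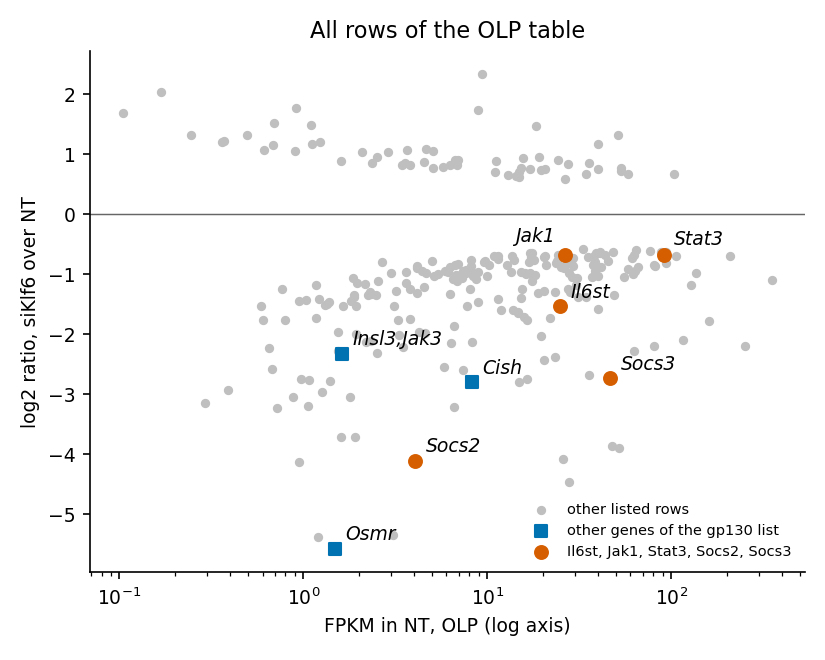
Log2 ratio of siKlf6 over NT against FPKM in NT (log axis) for every row of the OLP table, with the 5 pathway genes in red and 3 other listed rows of the pathway list in blue. All of them lie below 0, Stat3 and Jak1 at the edge of the smallest listed falls and Socs2, Socs3, Cish and Osmr well below it.

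Genes widely described as induced by Stat3 were counted as well. Of 35 such genes, 14 were listed in OLP, 13 of them lower and 1 higher, with a median log2 ratio of -1.76. The 13 lower genes were 37.1% of the list, against 0.953% of annotated protein-coding genes listed as lower, and 78.5% of all listed rows were lower. Klf6, the silenced gene, is on that list, and without it the counts were 12 lower and 1 higher of 34. The list was compiled with earlier results of these cultures known, so its share is not independent evidence. Whether the activity of Stat3 changed was not tested. Among the immediate-early factors, Junb was at 47.6 FPKM in NT and 3.26 FPKM in siKlf6 (log2 ratio -3.87), Fos at 80.7 and 17.7 FPKM (-2.19), and Klf4 at 3.79 and 1.12 FPKM (-1.75). The acute-phase protease inhibitor Serpina3n, a marker of reactive glia, was at 27.9 FPKM in NT and 1.27 FPKM in siKlf6 (-4.45). Irf1, an interferon-responsive transcription factor, was at 23.3 FPKM in NT and 4.50 FPKM in siKlf6 (-2.37).

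Smaller falls were listed for Pim3, a survival kinase (30.7 FPKM in NT and 14.6 FPKM in siKlf6, log2 ratio -1.07), for Myc, a growth regulator (87.8 and 56.9 FPKM, -0.63), and for Zfp36, which destabilizes cytokine messengers (4.50 and 1.95 FPKM, -1.21). Weakly expressed genes among the 13 were Icam1 (2.52 to 0.504 FPKM), Cebpb (3.29 to 0.966 FPKM) and Il4ra (1.35 to 0.481 FPKM). Bcl6, a transcriptional repressor, was the gene that rose (3.59 FPKM in NT and 6.52 FPKM in siKlf6, log2 ratio 0.86). The other 21 genes, among them Mcl1, Bcl3, Cebpd and Timp1, were not listed.

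**Figure D4:**
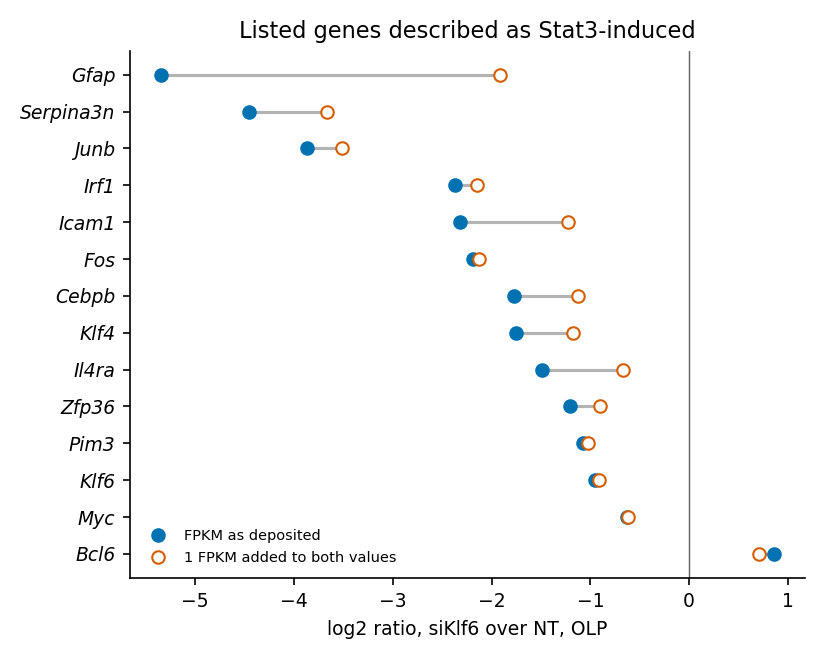
Log2 ratio of siKlf6 over NT in OLP for the 14 listed genes described as Stat3-induced, from FPKM as deposited (filled) and with 1 FPKM added to both values (open). Of these, 13 lie below 0 on both scales, Bcl6 lies above it, and Gfap moves most with the added value, from -5.35 to -1.92.

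Markers of other cell types were also listed in these cultures, and astrocytes and microglia express several Stat3-induced genes. Of 10 astrocyte markers, 2 were listed in OLP: Gfap was at 3.06 FPKM in NT and 0.0752 FPKM in siKlf6, whereas Sox9, which OLP also express, rose from 53.4 to 87.8 FPKM. Of 15 microglia markers, 2 were listed, Cd14 (1.91 to 0.146 FPKM) and Irf8 (1.81 to 0.667 FPKM), with a summed level of 3.72 FPKM in NT and 0.813 FPKM in siKlf6. Among 5 neuron markers, Tubb3 fell from 22.0 to 6.62 FPKM, and among 5 endothelial markers, Kdr fell from 0.764 to 0.323 FPKM. For comparison, 0.953% of annotated protein-coding genes were listed as lower in OLP. The part of these other cell types in the falls of Socs2, Socs3, Osmr and Il6st was not tested. None of the 11 markers of the oligodendrocyte lineage was listed in OLP, so the labelled cell type could not be checked from the listed rows. The study describes its cultures at plating as nearly all OLP by their marker proteins. It also reports that cells were harvested before viability changed.

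At the iOL stage, none of the 5 genes was listed (0 of 5), and none of the 49 genes of the pathway list (0 of 49), where 0.481% of annotated protein-coding genes were listed in either direction. At that share, a count of 0 is the ordinary outcome for lists of these sizes. The depth behind these absences is unknown, and the silenced gene Klf6 was not listed either, so the extent of silencing in iOL cannot be given. Falls as small as those of Stat3 and Jak1 in OLP were listed in iOL for other genes. Whether such falls of the 5 genes would have been listed there is unknown. Within the range of NT levels that the 5 genes had in OLP, 34 rows were lower in iOL, with a median log2 ratio of -0.70 and a smallest fall of -0.57. The levels of the 2 stages come from separate tables, and whether the stages were normalized together is not given in the sources used here. Of the 35 genes described as Stat3-induced, 1 was listed in iOL, the immediate-early gene Egr1, which rose (9.01 FPKM in NT and 21.9 FPKM in siKlf6, log2 ratio 1.28). Of the lineage markers, Sox10 was listed, at 42.1 FPKM in NT and 25.9 FPKM in siKlf6. Whether the response of the pathway genes differed between OLP and iOL was not tested, since they have no iOL values here.

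**Figure D5:**
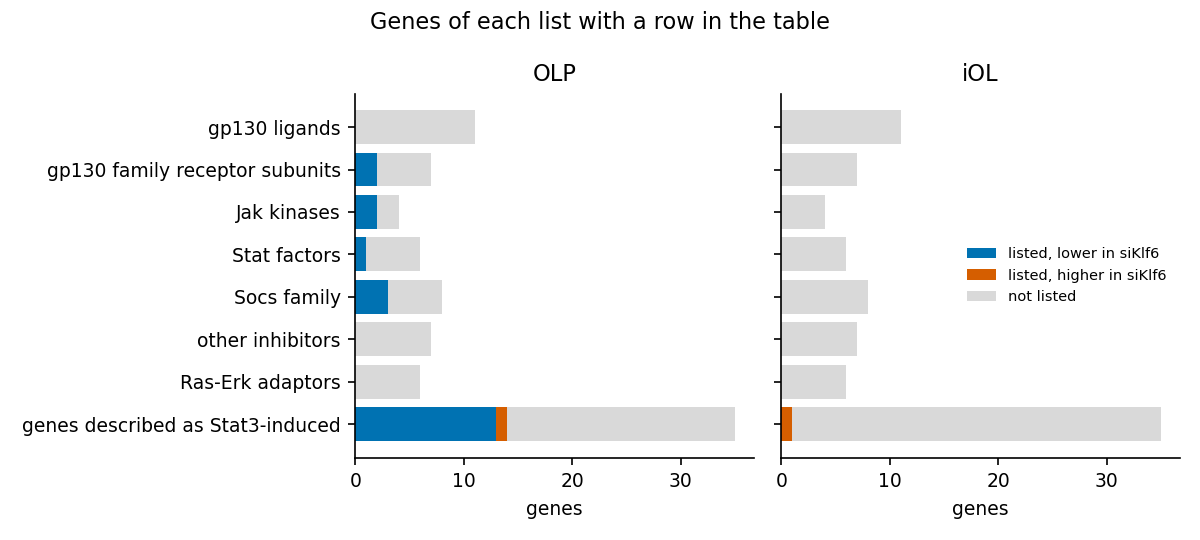
Number of genes of each pathway list and of the Stat3-induced list that had a row in the OLP table (left) or the iOL table (right), lower in siKlf6 in blue, higher in red and not listed in gray. In OLP, receptors, Jak kinases, Stat factors and the Socs family have listed genes, all lower, while ligands, other inhibitors and adaptors have none, and in iOL the single listed gene of these lists is Egr1, among those described as Stat3-induced.

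The rows most like each of the 5 genes were those nearest in log2 FPKM of both OLP conditions, a likeness over 2 pooled values. For Jak1 these were Tmem65 (26.4 FPKM in NT and 16.3 FPKM in siKlf6, distance 0.016 in log2 units) and Pros1 (distance 0.089). For Stat3 they were Myc (distance 0.051) and Midn (93.3 and 53.1 FPKM, distance 0.104). Il6st had Ltbr (23.4 and 9.56 FPKM, distance 0.175) and Acsl4 (distance 0.306), the latter being the only one of these 10 rows that was listed in iOL too. Socs3 was nearest to Sbno2 (35.8 and 5.60 FPKM, distance 0.500) and Trim62 (distance 0.943). Socs2 stood apart, with Smagp at a distance of 1.18 and Cd14 at 1.29.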

How the data were processed

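According to the methods of the study and the labels, libraries were made with a TruSeq RNA kit and sequenced on an Illumina HiSeq (CASAVA 1.8), and reads were mapped to mm9 with TopHat, quantified with Cufflinks and compared with CuffDiff under default parameters. Other tool versions are not given in the sources used here. The FPKM values were deposited by the authors as 1 value per condition, pooled over cultures, in 2 tables of significant rows. The tables also hold the authors' fold changes, test statistics, p-values and q-values, which were not used, apart from reading that the significance mark was set in each row.

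Log2 ratios were computed from the deposited FPKM without a pseudocount (Python 3.11.15, pandas 2.3.3), after the functions had been tested on simulated data. Rows were matched by gene symbol, on any of the names in a row. Loci came from GENCODE vM1 (NCBIM37). Promoters came from a RefSeq table (GRCm38.p6), in which Socs2 had no entry, and coordinates of the 2 builds were not combined. Named were the 5 genes, Klf6, each listed gene of the pathway, Stat3-induced and marker lists, and the 2 rows nearest to each of the 5. A few further genes are named as not listed, as examples. A gene that the pathway list covers is not reported here, and the counts leave it out. The members and lists were chosen with earlier results of these data known. Alternatives were 1 or 0.1 FPKM added, centring on the listed rows, at least 1 FPKM in both conditions, single-name rows and a 2-fold minimum.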

Additional observations from a re-analysis of the deposited data

How the results depend on the processing

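No paired analysis was possible because cultures were merged into 1 FPKM per condition before deposit, and leaving out a replicate could not be run either. Library depth is not known here, so the limits that it sets cannot be given.

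Of 51 recalculated values, 36 stayed within 0.1 log2 units, within 1.5 times for counts or within 5 percentage points for a share. Many of these could not have moved, so their number is no measure of robustness. Adding FPKM cannot change whether a gene is listed or the direction of its change. A 2-fold minimum cannot change a count of 2-fold falls. With 1 FPKM added, log2 ratios were -1.43 for Il6st (also the median of the 5 genes), -2.03 for Socs2 and -2.57 for Socs3, and with 0.1 FPKM added Socs2 was at -3.63. Centring on the median of the listed OLP rows put Il6st at -0.56, Socs2 at -3.13 and Socs3 at -1.75, and turned Jak1 to 0.30 and Stat3 to 0.30. This follows from the construction, since that median, -0.98, is taken over significant rows that are mostly lower. At least 1 FPKM in both conditions removed Socs2, left 4 of the 5 genes with a median of -1.11, and left 5 of the 8 listed pathway genes. A 2-fold minimum kept 3 of the 5 genes, with a median of -2.73, and raised the share of lower OLP rows to 84.5%. The counts of 0 in iOL did not move under filters, which cannot add rows.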
